A study of Saccharomyces cerevisiae with 4 samples.

Results

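The aminoacyl-tRNA synthetases of budding yeast (Saccharomyces cerevisiae) are described here by 35 genes that encode them, of 6207 open reading frames (ORFs) on the array. The genes were chosen by their systematic names, 22 for enzymes of the cytosol and 13 for enzymes of the mitochondrion, and all 35 had a row in the deposited table. Values on all 4 arrays were present for 32 of them, 21 cytosolic and 11 mitochondrial. GRS2 and MSM1 had values on 3 arrays and ISM1 on 1, so these did not enter the test. Wild-type cells in rich medium at 24 °C received Zymolyase 100T, a glucan-digesting enzyme preparation (5 units/ml, 3 h), and were compared with the part of each culture left untreated, with no other genotype or agent named for either arm. RNA of 2 cultures was hybridised on 4 two-colour arrays with the dyes swapped, where arrays 1 and 3 carried treated RNA on Cy3 while arrays 2 and 4 carried it on Cy5. Which of the arrays come from the same culture is not in the labels. The question was how the genes for charging tRNA differ between treated and untreated cells, and whether the enzymes of the cytosol and of the mitochondrion differ alike.

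An aminoacyl-tRNA synthetase joins an amino acid to its tRNA, which the ribosome then uses to read codons. Yeast makes separate sets of these enzymes for translation in the cytosol and in mitochondria, all encoded in the nucleus, and for a few amino acids 1 gene serves both compartments through alternative translation starts. The enzymes fall into class I and class II, which differ in the fold of the catalytic domain. Lack of charged tRNA is the signal that the kinase Gcn2 senses in the general control of amino acid synthesis by Gcn4.

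The deposited values are log ratios of the 2 channels, taken here as log2, and every value below is a ratio, that is a difference between treated and untreated RNA, never a level. Signs were turned for the dye swap and set so that SLT2, whose kinase acts in cell wall integrity signalling, is positive (2.25 ± 0.11, SD, n = 4 arrays of 2 cultures), because the labels do not name the numerator. A negative value therefore lies opposite to SLT2. As background, SLT2 is known to be induced by wall damage, and if it was here, negative values are lower transcript amounts in treated cells, which these data do not settle. Of 4543 ORFs with a value on each array, limma placed 207 on the side of SLT2 (4.56%) and 63 opposite (1.39%) at an adjusted p under 0.05, and the median over all of them was -0.03. No intensities were used here, so only the number of arrays can be given as the limit on precision, and in RNA from a whole culture fewer cells with a transcript and less of it per cell cannot be told apart.

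The cytosolic synthetase genes lay opposite to SLT2 by a small amount, and the mitochondrial ones lay near 0. The median of the 21 cytosolic means was -0.23, with 20 of 21 below 0, and the median of the 11 mitochondrial means was 0.03, with 5 of 11 below 0. Of all 4543 ORFs tested, 2578 had a mean below 0. Among cytosolic genes 12 of 21 (57.1%) were below 0 on all 4 arrays, against 15.3% of all ORFs, and 0 were above 0 on all 4, against 13.1% of all ORFs. Among mitochondrial genes 0 of 11 were below 0 on all 4 arrays and 0 of 11 above. In limma 1 cytosolic gene, ALA1, passed the test opposite to SLT2 and 0 passed on its side, and 0 mitochondrial genes passed in either direction. At an unadjusted p under 0.05 the counts opposite to SLT2 were 8 of 21 cytosolic and 0 of 11 mitochondrial genes, against 9.00% of all ORFs. The cytosolic count of 1 call was 10 of 21 if array 1 was paired with array 4 and array 2 with array 3, where 13.9% of all ORFs were called opposite to SLT2. It was 4 if the 4 arrays were taken as independent with a dye term (4.25% of all ORFs), 0 if arrays were centred (0.176%) and 0 if any array was left out (0.686% to 1.35%). A gene that missed the threshold is not shown to be unchanged.

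**Figure D1:**
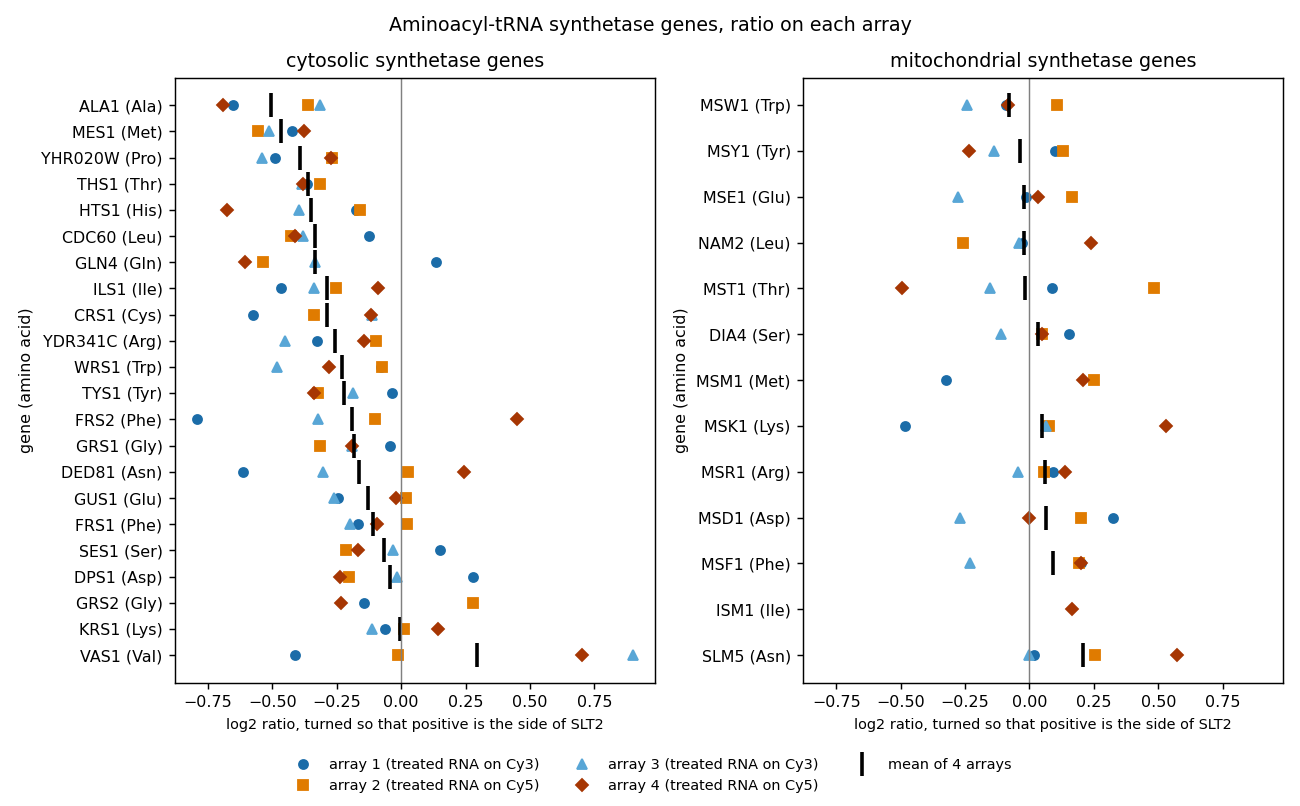
Log2 ratio (x axis, positive on the side of SLT2) of each synthetase gene (y axis, with its amino acid) on arrays 1 to 4, with the mean of 4 arrays as a black bar where all 4 have a value. In the cytosolic panel 12 of 21 measured genes have all 4 points left of 0, and in the mitochondrial panel 0 of 11 do.

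ALA1 (YOR335C), the alanyl-tRNA synthetase gene, had log2 ratios of -0.65, -0.36, -0.32 and -0.69 on arrays 1 to 4. All 4 lay opposite to SLT2, with the larger sizes on arrays 1 and 4. The mean of -0.51 ± 0.19 (SD, n = 4 arrays) is a 1.42-fold difference, and 1.92% of all ORFs had a lower mean. The adjusted p in limma was 0.0483, just inside the threshold. It was 0.0992 with arrays centred on their medians, 0.0937 with scaling as well and 0.0522 after quantile normalization. In a fit that took the arrays as independent with a dye term, it was 0.0348 for 4 arrays, and without arrays 1, 2, 3 and 4 in turn it was 0.107, 0.0682, 0.0624 and 0.187 in limma, so the call was lost whichever array was left out. Over all 14 alternatives the adjusted p ran from 0.00199 to 0.187.

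MES1 (YGR264C), which encodes the methionyl-tRNA synthetase, was the next lowest and varied little, with -0.42, -0.56, -0.52 and -0.38 on arrays 1 to 4 (mean -0.47 ± 0.08). Its adjusted p in limma was 0.0626, which missed the threshold. THS1 (YIL078W), the threonyl-tRNA synthetase gene, was the most even of all, with -0.36, -0.31, -0.39 and -0.38 on arrays 1 to 4 and a mean of -0.36 ± 0.03. It also missed the threshold (adjusted p = 0.136 in limma). YHR020W, annotated as the prolyl-tRNA synthetase gene, had -0.49, -0.27, -0.54 and -0.27, with the larger sizes on the arrays that carried treated RNA on Cy3, and a mean of -0.39 ± 0.14 (adjusted p = 0.108 in limma). MES1, THS1 and YHR020W each passed in the fit that took 4 arrays as independent with a dye term (adjusted p = 0.0226, 0.0388 and 0.0306 in limma). Over 14 alternatives their adjusted p ran from 0.00134 to 0.164, from 0.00529 to 0.271 and from 0.00331 to 0.202.

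Another 8 cytosolic genes were below 0 on each array with means from -0.35 to -0.18, none of them past the test. HTS1 (YPR033C), for histidine, had -0.18, -0.16, -0.40 and -0.68 on arrays 1 to 4, a mean of -0.35 ± 0.24 that arrays 3 and 4 made larger. CDC60 (YPL160W), the leucyl-tRNA synthetase gene, had -0.13 on array 1 and -0.43, -0.38 and -0.41 on arrays 2, 3 and 4. ILS1 (YBL076C), for isoleucine, had -0.47, -0.25, -0.34 and -0.09. In these 3 genes the spread came from arrays of unlike size and not of unlike sign.

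CRS1 (YNL247W), the cysteinyl-tRNA synthetase gene, had -0.58, -0.34, -0.11 and -0.12 on arrays 1 to 4 (mean -0.29 ± 0.22). YDR341C, for arginine, had -0.33, -0.10, -0.45 and -0.15 (mean -0.26 ± 0.16). WRS1 (YOL097C), for tryptophan, had -0.08, -0.07, -0.48 and -0.28 (mean -0.23 ± 0.19). TYS1 (YGR185C), for tyrosine, and GRS1 (YBR121C), the main glycyl-tRNA synthetase gene, were the smallest of the 8, with ranges over the arrays of -0.34 to -0.03 and -0.31 to -0.04.

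The other 9 measured cytosolic genes had both signs among their arrays. GLN4 (YOR168W), for glutamine, had 0.14 on array 1 and -0.54, -0.34 and -0.61 on arrays 2, 3 and 4, and its mean of -0.34 ± 0.33 rested on the last 3. DED81 (YHR019C), for asparagine, followed the dyes, with -0.62 and -0.30 where treated RNA was on Cy3 and 0.03 and 0.24 where it was on Cy5. DPS1 (YLL018C), for aspartate, ran the other way, with 0.28 and -0.02 on the Cy3 arrays and -0.20 and -0.24 on the Cy5 arrays. For these 2 genes the means of -0.16 ± 0.38 and -0.04 ± 0.24 average values that did not overlap between dye orientations. The same lack of overlap held for GLN4, FRS1, FRS2, GUS1, SES1 and KRS1. In GLN4 and SES1 the Cy3 arrays were the higher, and in FRS1, FRS2, GUS1 and KRS1 the lower. Of the 9 genes only VAS1 had values that overlapped. Some genes below 0 on each array had the same lack of overlap. The Cy3 arrays were the higher in CDC60 and TYS1, and the lower in ILS1, YDR341C and YHR020W. The share of all ORFs with such a split was not counted, so it is not shown to be particular to these genes. Whether the dyes caused these splits was not tested.

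The phenylalanyl-tRNA synthetase of the cytosol is made of subunits from 2 genes. FRS1 (YLR060W), the beta subunit gene, had -0.17, 0.02, -0.20 and -0.09 on arrays 1 to 4 (mean -0.11 ± 0.10). FRS2 (YFL022C), the alpha subunit gene, had -0.79 on array 1 and 0.45 on array 4 (mean -0.19 ± 0.52), so its spread was the wider of the pair. The means of both subunits lay opposite to SLT2 and neither gene passed the test.

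GUS1 (YGL245W), the glutamyl-tRNA synthetase gene, had -0.25, 0.02, -0.26 and -0.02 on arrays 1 to 4 (mean -0.13 ± 0.15). Its product and that of MES1 are held together by Arc1, a tRNA-binding cofactor, whose gene had -0.08, -0.04, 0.04 and -0.06 (mean -0.03 ± 0.05). Of these 3 genes of 1 complex, MES1 alone was below 0 on every array. SES1 (YDR023W), for serine, had a mean of -0.07 ± 0.16, and KRS1 (YDR037W), for lysine, had -0.01 ± 0.11 with the arrays between -0.11 and 0.14, the cytosolic mean nearest to 0. GRS2 (YPR081C), a duplicate of GRS1, had -0.14, 0.28 and -0.23 on arrays 1, 2 and 4 and no value on array 3. GRS1 and GRS2 are related in sequence, and probe sequences were not used here, so shared signal was not tested.

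VAS1 (YGR094W), the valyl-tRNA synthetase gene, was the exception among cytosolic means, the 1 of 21 on the side of SLT2. It had -0.41 and -0.01 on arrays 1 and 2 but 0.90 and 0.70 on arrays 3 and 4, a mean of 0.29 ± 0.61 with the widest spread of all 32 measured members. The adjusted p in limma was 0.529. With the dye orientations weighed equally, its value was 0.62 if array 1 was dropped and -0.03 if array 3 was. Under that weighting the sign thus turned without array 3.

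VAS1 is also a gene that serves both compartments, as ALA1, GRS1, HTS1 and CRS1 are known to be. Of these 5 genes 4 were below 0 on all 4 arrays, and their median was -0.29, with VAS1 the exception. The 14 cytosolic genes whose amino acid has a mitochondrial enzyme of its own had a median of -0.21, with 7 of 14 below 0 on all 4 arrays. The ranges of the 2 groups overlap, and no difference between them was tested.

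The mitochondrial synthetase genes had means between -0.08 and 0.21, and 17 of the 21 cytosolic means lay below the lowest of them, as did 40.2% of all ORFs. SLM5 (YCR024C), for asparagine, was the highest, with 0.02, 0.25, -0.0025 and 0.57 on arrays 1 to 4 (mean 0.21 ± 0.27, adjusted p = 0.413 in limma). Its values on the Cy5 arrays exceeded those on the Cy3 arrays. MSR1 (YHR091C), for arginine, was the most even, with 0.09, 0.06, -0.04 and 0.14 (mean 0.06 ± 0.08). MSF1 (YPR047W), which acts as a lone subunit for phenylalanine in mitochondria, had 0.20, 0.19 and 0.20 on arrays 1, 2 and 4 but -0.23 on array 3.

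Array 3 was the low one for several more. MSD1 (YPL104W), for aspartate, had 0.33, 0.20, -0.27 and -0.0033 on arrays 1 to 4, and MSE1 (YOL033W), for glutamate, had -0.01, 0.17, -0.28 and 0.03. MSW1 (YDR268W), for tryptophan, had the lowest mean of the 11 mitochondrial members (-0.08 ± 0.14), with -0.24 on array 3 and 0.11 on array 2. DIA4 (YHR011W), for serine, lay between -0.11 on array 3 and 0.15 on array 1. On array 3, 10 of 11 mitochondrial genes were below 0, against 4, 1 and 4 on arrays 1, 2 and 4. Of all ORFs 57.0% were below 0 on array 3, and 46.0%, 54.3% and 54.3% on arrays 1, 2 and 4. Measured from the median of all ORFs on array 3, 7 of the 11 were lower.

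The remaining mitochondrial genes had wide or split values. MSK1 (YNL073W), for lysine, reached from -0.48 on array 1 up to 0.53 on array 4, and MST1 (YKL194C), for threonine, from -0.49 on array 4 to 0.48 on array 2. MSY1 (YPL097W), for tyrosine, was above 0 on arrays 1 and 2 (0.10 and 0.13) and below it on the other two (-0.14 and -0.24). NAM2 (YLR382C), the leucyl-tRNA synthetase gene whose product is also known to aid splicing of mitochondrial introns, had -0.26 on array 2 and 0.24 on array 4. The means of these 4 genes were between -0.04 and 0.05. MSM1 (YGR171C), for methionine, had -0.33, 0.25 and 0.21 on arrays 1, 2 and 4, and ISM1 (YPL040C), for isoleucine, had 0.16 on array 4 alone.

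The compartments were then set side by side on each array. The cytosolic median was -0.25, -0.22, -0.32 and -0.19 on arrays 1 to 4, and the mitochondrial median was 0.09, 0.13, -0.14 and 0.05. The cytosolic median was thus the lower on each array, by differences (cytosolic minus mitochondrial) of -0.33, -0.35, -0.18 and -0.24, with a mean of -0.27 ± 0.08 (SD, n = 4 arrays of 2 cultures). Array 3, where both medians were lowest, gave the smallest difference. Over the same arrays the median of all ORFs was 0.04, -0.03, -0.05 and -0.04, and 18, 16, 18 and 16 of the 21 cytosolic genes lay below it, against 5, 1, 7 and 3 of the 11 mitochondrial genes. Since the members were chosen with results of these data known, the difference is given as a description, with no p.

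**Figure D2:**
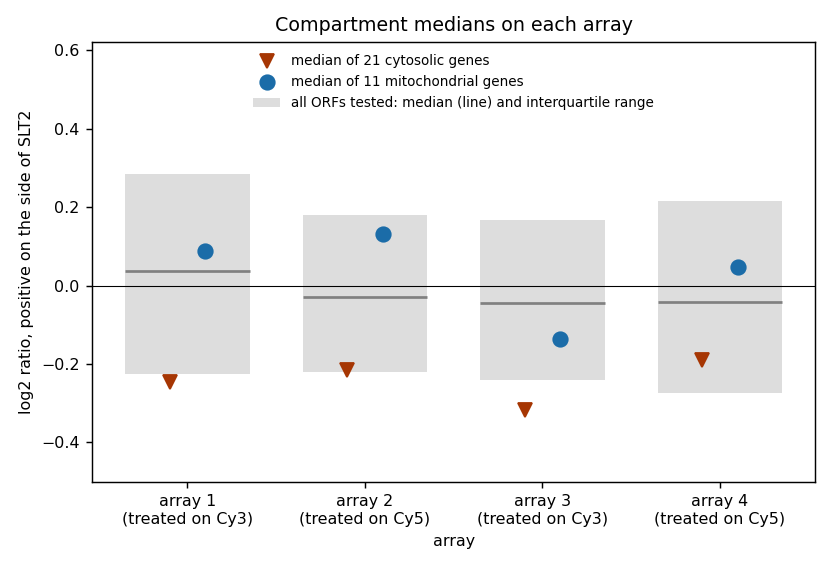
Median log2 ratio (y axis, positive on the side of SLT2) of the 21 cytosolic and 11 mitochondrial genes on each array (x axis), over a grey box that spans the interquartile range of all ORFs tested, with their median as a line. The cytosolic median lies below the mitochondrial one on each array, and on arrays 1 and 3 it lies under the grey box.

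The comparison within an amino acid showed the same order. Of 12 cytosolic and mitochondrial pairs with values on all 4 arrays, FRS1 and FRS2 each paired with MSF1, the cytosolic mean was the lower in 12. The cytosolic gene was the lower on all 4 arrays in 4 pairs and on 3 arrays in the other 8, and the median difference over the pairs was -0.19. The clearest pair was that for arginine, YDR341C minus MSR1, with -0.42, -0.15, -0.41 and -0.28 on arrays 1 to 4 (mean -0.32 ± 0.12). DED81 minus SLM5, for asparagine, had -0.63, -0.23, -0.30 and -0.33 (mean -0.37 ± 0.18), and although the values of each gene followed the dyes, their difference kept 1 sign. CDC60 minus NAM2, for leucine, ranged from -0.65 to -0.10, and TYS1 minus MSY1, for tyrosine, from -0.45 to -0.05.

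In the other 8 pairs the sign was mixed. KRS1 minus MSK1, for lysine, had 0.42 on array 1 and -0.06, -0.18 and -0.39 on arrays 2, 3 and 4 (mean -0.05 ± 0.34), the smallest mean difference. THS1 minus MST1, for threonine, had -0.45, -0.80, -0.23 and 0.11, a spread that came from MST1, since THS1 itself was even. The array with the opposite sign was array 3 for aspartate (0.26), glutamate (0.02), serine (0.08) and FRS1 with MSF1 (0.03), array 1 for lysine and tryptophan, and array 4 for threonine and FRS2 with MSF1. For methionine, MES1 minus MSM1 was -0.10, -0.81 and -0.58 on arrays 1, 2 and 4, and for isoleucine ILS1 minus ISM1 was -0.25 on array 4.

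**Figure D3:**
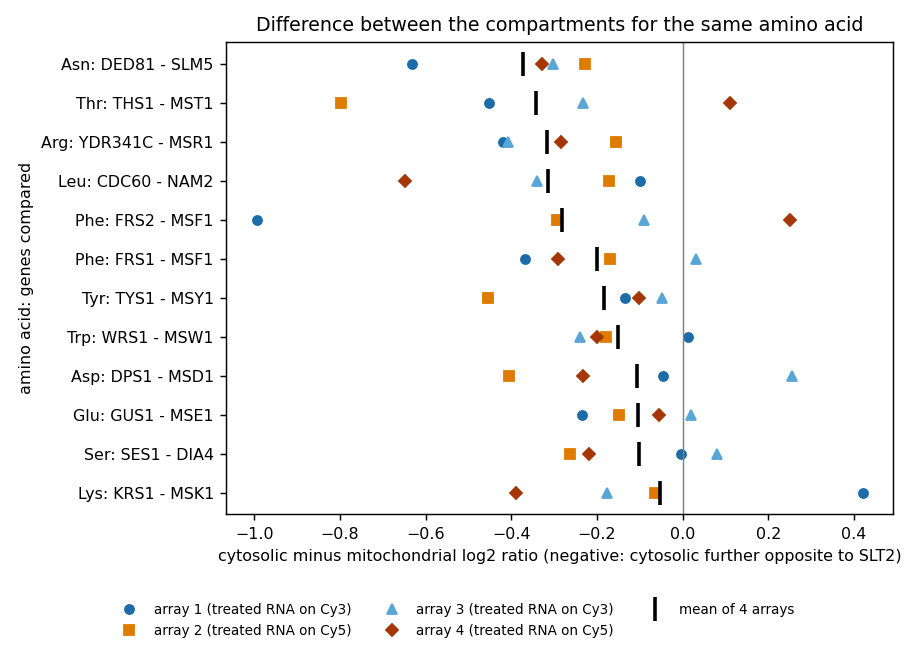
Cytosolic minus mitochondrial log2 ratio (x axis) for each amino acid with a gene for each compartment (y axis), on arrays 1 to 4, with the mean of 4 arrays as a black bar. All 12 bars lie left of 0, and 4 pairs have all 4 points there.

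Enzyme class divided the members less than compartment did. The 10 cytosolic genes of class I had a median of -0.27, with 7 below 0 on all 4 arrays, and the 11 of class II had -0.18, with 5. Among mitochondrial genes the 5 of class I had a median of -0.02 and the 6 of class II one of 0.06. Within each class the cytosolic median was the lower, while the order of the classes by median was alike in both compartments. ALA1 and KRS1, the lowest and the highest mean of the cytosolic class II genes, span nearly the whole cytosolic range below 0.

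Other genes of tRNA and translation were counted in lists written from general knowledge. The tRNA modification genes resembled the cytosolic synthetases, with a median of -0.27. Of 28 measured genes, 14 were below 0 on all 4 arrays, against 15.3% of all ORFs. At an unadjusted p under 0.05 in limma 11 lay opposite to SLT2, against 9.00% of all ORFs. Past the adjusted threshold 1 gene lay opposite to SLT2, against 1.39% of all ORFs. That gene was TRM1, which encodes a tRNA guanine methyltransferase, with -0.74, -0.46, -0.55 and -0.43 on arrays 1 to 4 (mean -0.54 ± 0.14, adjusted p = 0.0373 in limma). The list's count of 1 became 0 when arrays were centred and when array 1, 2 or 4 was left out, and 18 when array 1 was paired with array 4 and array 2 with array 3, where 13.9% of all ORFs were called opposite. TAD2, a tRNA adenosine deaminase subunit gene, was the highest of this list (0.09 ± 0.17).

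RNA polymerase III, which transcribes tRNA genes, and its factors had a median of -0.17. The means ran from RPC34 (-0.49 ± 0.59) to RPO31, the gene of the largest subunit (0.29 ± 0.11). Of 16 genes, 7 were below 0 on all 4 arrays, against 15.3% of all ORFs. The 13 measured genes of tRNA processing and export had a median of -0.11, from POP5 (-0.25 ± 0.13) to POP8 (-0.01 ± 0.22). Of these 13 genes, 5 (38.5%) were below 0 on all 4 arrays, against 15.3% of all ORFs. General amino acid control had a median of -0.13 over 11 genes, from GCD7 (-0.24 ± 0.18) to YIH1 (0.00 ± 0.58). Of these 11 genes, 2 (18.2%) were below 0 on all 4 arrays, against 15.3% of all ORFs. In limma 0 genes of these 3 lists passed. The counts at an unadjusted p under 0.05 in either direction were 6, 0 and 0, against 19.3% of all ORFs, and of the 6 genes of RNA polymerase III 5 lay opposite to SLT2 and 1 on its side. GCN4 itself had 0.36 on array 1 and -0.17, -0.44 and -0.21 on arrays 2, 3 and 4 (mean -0.11 ± 0.34).

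The genes that act next to the synthetases differed from them in size. The 14 genes of cytosolic tRNA delivery and elongation had a median of -0.05, from TEF4, an elongation factor subunit gene (-0.27 ± 0.09), to CAM1 (0.12 ± 0.35). Of these 14 genes 2 were below 0 on all 4 arrays, against 15.3% of all ORFs. Cytosolic ribosomal protein genes had a median of -0.12 over 129 genes, from RPS21A (-0.31 ± 0.20) to RPS15 (0.04 ± 0.34). Of them 28 (21.7%) were below 0 on all 4 arrays, against 15.3% of all ORFs. On array 1 their median was 0.12, where that of the cytosolic synthetases was -0.25. In limma 0 genes of either list passed, with 0 of 14 and 1 of 129 at an unadjusted p under 0.05 in either direction, against 19.3% of all ORFs.

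The mitochondrial lists lay near 0, as did the mitochondrial synthetases. The 9 measured genes listed as mitochondrial translation factors had a median of 0.06. Their means ran from IFM1, the initiation factor gene (-0.13 ± 0.25), to AIM23 (0.18 ± 0.27). The list was written by symbol, and the role of each gene was not checked. It holds AIM10 (-0.11 ± 0.17), PET112 (0.04 ± 0.38) and GTF1 (0.13 ± 0.18), so it may not be free of genes for charging tRNA. Of these 9 genes 0 were below 0 on all 4 arrays, against 15.3% of all ORFs. TUF1, the mitochondrial elongation factor gene, had 0.10, 0.09, -0.01 and 0.16 on arrays 1 to 4. The 52 mitochondrial ribosomal protein genes had a median of -0.04, from MRPL20 (-0.33 ± 0.44) to MRPL22 (0.15 ± 0.34). Of them 6 (11.5%) were below 0 on all 4 arrays, against 15.3% of all ORFs. In limma 0 genes passed in these lists, with 0 of 9 and 1 of 52 at an unadjusted p under 0.05 in either direction, again against 19.3% of all ORFs. Array 3 was the lowest for the translation factors (-0.06) as it was for the synthetases (-0.14), whereas mitochondrial ribosomal protein genes were lowest on array 4 (-0.21).

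**Figure D4:**
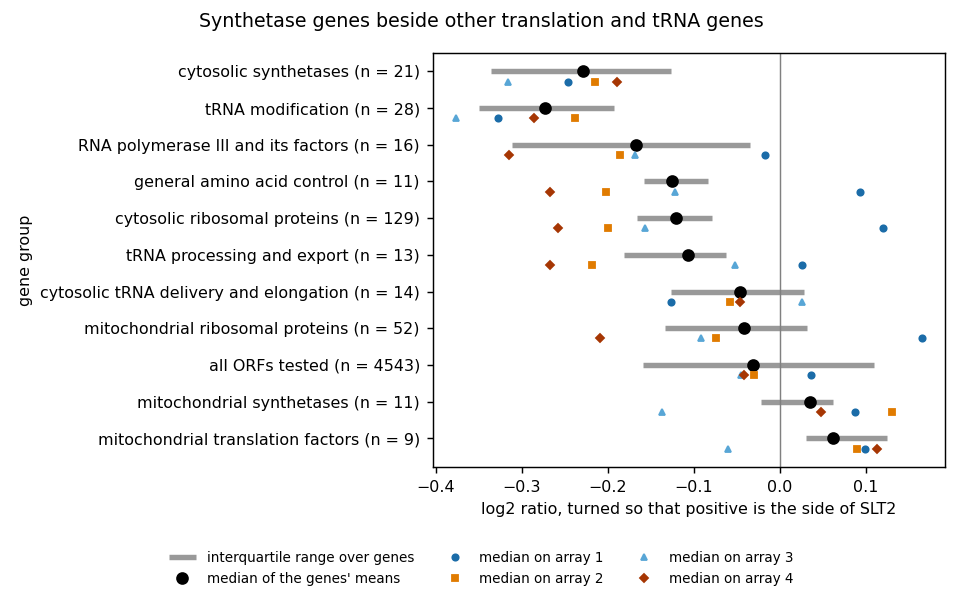
Log2 ratio (x axis, positive on the side of SLT2) of each gene group (y axis, with the number of genes measured on 4 arrays), as the median of the genes' means, their interquartile range, and the median on each array below it. The cytosolic synthetases (-0.23) and tRNA modification genes (-0.27) lie furthest opposite to SLT2 among the groups drawn. All 4 array medians of both, and of RNA polymerase III and its factors, are below 0.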

How the data were processed

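Total RNA was labelled with Cy3 or Cy5, per the labels' protocols. The authors deposited 1 table of log ratios, read here as log2; no source used here gives the log base, numerator, background correction, normalization or filters. Of 6209 rows, 2 control rows were left out. Empty cells made up 16.0% to 21.3% of ORFs per array. All 35 synthetase genes took names from RefSeq assembly R64, and none overlaps another gene of that table.

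The dye labels gave the turn of each sign, which was then set so that SLT2 is positive, a choice made with its values known. limma 3.58.1 in R 4.3.3 (lmFit, eBayes) was fitted on 4543 ORFs to culture averages of swapped arrays (n = 2 cultures), in both possible pairings, keeping the larger p, with Benjamini-Hochberg adjustment over all ORFs at 0.05. Only 1 of these pairings is the true one. Medians carry no test. Functions were tested on simulated data. The members and lists were chosen with earlier results of these data known. All members were named, and of each list the genes past the test, the highest and the lowest. ARC1, GCN4, TUF1, AIM10, PET112 and GTF1 are exceptions, picked with their values in view.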

Additional observations from a re-analysis of the deposited data

Results flagged for a closer look

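For 2 of the 32 genes measured on 4 arrays, a lone array stood far from the others. CDC60 had -0.13 on array 1, against -0.43 to -0.38 on the remaining arrays. MSF1 had -0.23 on array 3, against 0.19 to 0.20. By chance such a gap appears in about 1 in 20 sets of 4 values, which is 1.75 for the 35 sets checked, namely these 32 genes, the 2 compartment medians and their difference. The cause of either value was not tested.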

How the results depend on the processing

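Alternatives that changed only the pairing, the dye term, the variance estimate or the threshold kept the same means, so their medians could not move. Centring could not move the difference between the compartments. In the rest of the 14 alternatives the medians and their difference moved by less than the spread between arrays. Fits without 1 array keep 3 of the 4 arrays, which limits how far a median can move. For those fits a move below that spread thus says little about stability. The differences of the medians ran from -0.28 to -0.22. The mitochondrial median was 0.03 and became -0.03 without array 1. The mitochondrial counts of calls stayed at 0 in each alternative. The count of cytosolic genes past the test opposite to SLT2 was 1 in the main test. Pairing array 1 with array 4 and array 2 with array 3 gave 10. In that pairing 1 cytosolic gene, VAS1, was called on the side of SLT2, against 13.2% of all ORFs. Taking the 4 arrays as independent gave 4 with a dye term and 2 without one, ORFs of 3 or more values gave 4, robust empirical Bayes gave 3, and a threshold of 0.1 gave 2. It was 0 with arrays centred, with centring and scaling, and after quantile normalization, and 0 without each array in turn. The fits to 3 arrays use arrays in place of cultures as replicates. The cause of the other shifts was not tested. Over all ORFs the count opposite to SLT2 was 63. It was 8 after centring, 11 after scaling as well, 73 after quantile normalization, 193 and 68 with and without a dye term, 189 with 3 or more values, 225 with robust estimation, 153 at the threshold of 0.1 and 631 with array 1 paired with array 4. Without arrays 1, 2, 3 and 4 in turn it was 44, 33, 63 and 39. In the alternatives chosen after seeing the data, the cytosolic genes below 0 on every array numbered 12 under each scaling (13.6% to 15.8% of all ORFs). On 3 arrays, where fewer values need be below 0, they numbered 12 to 15 and the mitochondrial ones 0 to 1, against 18.1% to 27.8% of all ORFs. Of 448 gene values under the alternatives 20 had the opposite sign to the main mean, all of genes not past the test, 11 in number. The 448 include the alternatives that kept the same means, where no sign could change. All 20 arose with arrays centred, with scaling as well, or with an array left out. Each ratio already compares treated with untreated RNA on 1 array, so no block by replicate number was added, and both possible pairings of arrays into cultures were fitted.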
